A study of Mus musculus with 8 samples.

Results

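The genes described here encode the nuclear subunits of the mitochondrial respiratory chain and its ATP synthase. They were chosen by symbol, as the genes whose names start with Ndufa, Ndufb, Ndufc, Ndufs, Ndufv, Uqcr, Cox4, Cox5, Cox6, Cox7, Cox8 or Atp5, together with Sdha, Sdhb, Sdhc, Sdhd and Cyc1. The rule finds 88 of the 17097 genes with a probe set that has a single gene symbol, and each gene is read by its probe set with the highest mean. By complex, 32 are subunits of complex I, 4 of complex II, 8 of complex III, 16 of complex IV and 17 of complex V. The other 11 carry a matching name without being counted as subunits here: 7 complex I assembly factors, Ndufa4, Ndufa4l2, Cox7a2l and the pseudogene symbol Ndufs5-ps. Of the 88, 87 exceeded a log2 signal of 4.85 in at least 2 arrays and were tested. The exception was Cox7b2, a testis isoform of a complex IV subunit, which lay between 4.14 and 4.34 in all arrays.

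Expression was measured on 8 microarrays of tumour cells sorted from the back skin of 4 mice with basal cell carcinoma (tumours of the skin that depend on Hedgehog signalling) or with the lesions that tolerate the drug. Fat and muscle had been scraped off and the epidermis separated before sorting. The 4 groups, each with 2 mice, were Lgr5-positive cells after vismodegib, Lgr5-negative cells after vismodegib, untreated Lgr5-positive cells and untreated Lgr5-negative cells. All 4 groups carry the genotype K14-CreER/Ptch1cKO, an inducible loss of the Hedgehog receptor Ptch1 driven by the keratin promoter K14, so there is no group without the deletion. Vismodegib inhibits Smoothened, the activator that Ptch1 restrains. The sorted cells were living, single and positive for the surface protein Lrig1 and were split by a green fluorescent reporter of the stem cell receptor Lgr5. The labels write the Lgr5-negative population as "Lrg5-Lrig1+" and give no drug dose, treatment time, age or strain background. Both populations of a mouse come from the same animal, and n = 2 mice per group limits the precision of every value below. The title of the series places the study in tumour relapse after therapy, and the comparisons ask how the populations and the drug differ.

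The respiratory chain lies in the inner mitochondrial membrane. Complex I takes electrons from NADH and complex II takes them from succinate; both pass them through ubiquinone to complex III, from there through cytochrome c to complex IV and so to oxygen. Complexes I, III and IV pump protons, and complex V, the ATP synthase, uses the return flow of protons to make ATP. Most subunits are encoded in the nucleus and imported, while a few core subunits are encoded in mitochondrial DNA. In skin, hair follicle stem cells are known for a metabolism that leans on glycolysis, and a deficient chain in mouse epidermis impairs follicle growth.

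The labels were checked first. Lgr5 lay at 9.44 and 10.03 in the vismodegib Lgr5-positive arrays against 5.46 and 4.83 in the vismodegib Lgr5-negative arrays, and at 10.98 and 11.0 in the untreated Lgr5-positive arrays against 8.52 and 8.40 in the untreated Lgr5-negative arrays, in the order of the gates. The untreated Lgr5-negative arrays were thus not free of Lgr5 RNA. They stood well above the vismodegib Lgr5-negative arrays and below the vismodegib Lgr5-positive arrays. The 12 keratinocyte markers averaged 11.2 to 11.5 in every array and all exceeded 4.85. Markers of striated muscle and fat, both removed before sorting, averaged 5.48 to 5.68 (13 genes) and 5.01 to 5.19 (5 genes) over the arrays. Myeloid and Langerhans cell markers (19 genes) differed between groups, as given beside the results. They averaged 8.71 and 8.44 in vismodegib Lgr5-positive arrays and 8.14 and 8.12 in vismodegib Lgr5-negative arrays. In untreated arrays they averaged 6.14 and 5.73 (Lgr5-positive) and 7.15 and 7.50 (Lgr5-negative). The untreated Lgr5-positive averages were thus close to those of the muscle markers. In such bulk samples, fewer cells of a type and less RNA per cell cannot be told apart.

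Untreated Lgr5-positive cells had less RNA of respiratory chain subunits than untreated Lgr5-negative cells. At an adjusted p under 0.05 in limma, 32 of the 87 tested members were lower, against 10.9% of all 14403 genes tested, and 1 was higher (Cox6b2), against 6.21%. The median log2 fold change of the members was −0.61, a 1.53-fold lower level, beside 0.02 over all genes. Of the 87, 78 lay below 0, and for 73 (83.9%) both untreated Lgr5-positive arrays were under both untreated Lgr5-negative arrays, which held for 31.2% of all genes. The median of each of the 5 complexes was below 0. Their shares of called genes differed and were not compared by a test.

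**Figure D1:**
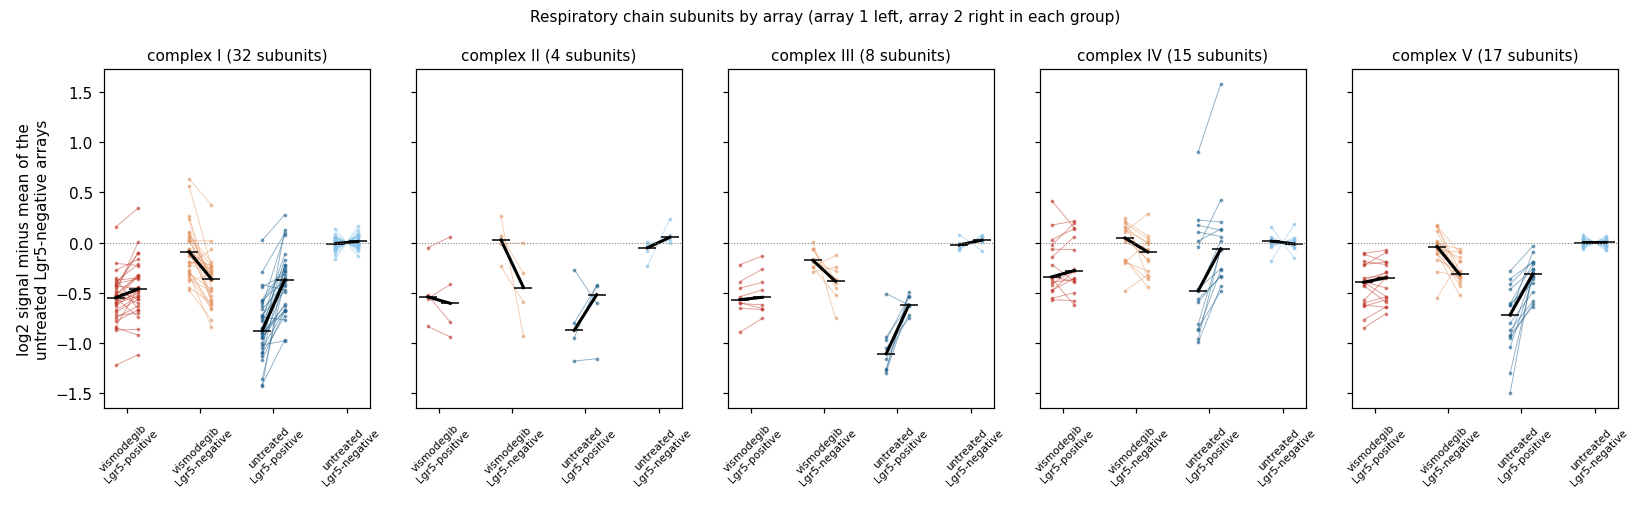
Log2 signal of each tested subunit in each of the 8 arrays, minus its mean in the untreated Lgr5-negative arrays (thin lines join the arrays of a group, array 1 left), by complex, with the complex median in black. Medians are lowest in untreated Lgr5-positive array 1 for every complex, and complex III reaches −1.11 there.

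The arrays of the untreated Lgr5-positive group were unequal in these genes. Relative to the untreated Lgr5-negative mean, the median subunit stood at −0.48 and −0.43 in vismodegib Lgr5-positive arrays 1 and 2, −0.06 and −0.32 in vismodegib Lgr5-negative arrays, −0.83 and −0.36 in untreated Lgr5-positive arrays, and −0.01 and 0.01 in untreated Lgr5-negative arrays. Untreated Lgr5-positive array 1 was thus the lowest of all, and 69 of the 76 tested subunits were higher in array 2 of that group. In 25 of the 76 (32.9%) the gap was at least 0.5, against 12.3% of all genes. The 3′ minus 5′ difference of the Gapdh control probe sets was −0.13 in array 1 and −0.21 in array 2, inside the span of the 8 arrays (−0.23 to 0.01). For the actin control it was −0.46 and −0.58 in the untreated Lgr5-positive arrays against −0.34 and −0.37 in the untreated Lgr5-negative arrays. Array 2 was thus the lowest of all 8 in actin, and both Lgr5-positive arrays lay below both Lgr5-negative arrays. The part of RNA quality in the difference of the subunits was not tested. Without untreated Lgr5-positive array 1 the members' median was −0.37, and without array 2 it was −0.83, each beside 0.02 over all genes. Without array 1 or array 2 of the untreated Lgr5-negative group the medians were −0.62 and −0.59, beside 0.02 and 0.01. Fewer members, and fewer of all genes, were called lower without untreated Lgr5-positive array 1 or either untreated Lgr5-negative array. Without untreated Lgr5-positive array 2 more members were called lower, but fewer of all genes. Without untreated Lgr5-negative array 2 the share of members called lower was near that of all genes.

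The share of genes higher among the calls also moved with scaling. Over all genes, 36.3% of the calls in this comparison were higher in untreated Lgr5-positive cells, against 45.6% after cyclic loess between arrays and 51.3% after centring each array on its median. Of the 87 members, 24 and 27 were lower under these scalings, and 1 was higher under each. Of all 14403 genes, 1231 were lower after cyclic loess and 1218 after centring. The members' median was −0.475 after cyclic loess and −0.53 after centring, beside 0.0025 and 0.11 over all genes.

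Complex I, the entry point for electrons from NADH, had 13 of 32 subunits lower and 0 higher, with a median of −0.61 and 31 of 32 below 0. Of the 7 subunits listed for its NADH-oxidising module, 4 were lower. Ndufv3, an accessory subunit of the flavoprotein part (chr17:31520115-31531326, GRCm38.p6), was 1 of these and had the lowest adjusted p of all members. Ndufv3 stood at 9.46 and 9.91 in untreated Lgr5-positive arrays, against 10.89 and 10.87 in untreated Lgr5-negative arrays. The groups lay far apart, with a log2 fold change of −1.19 ± 0.16 (standard error, here and below; adjusted p = 0.00358). Ndufs1, the largest iron-sulfur subunit, stood at 8.0 and 8.22 against 8.78 and 9.03 in the same groups (−0.79 ± 0.14, adjusted p = 0.0105). Ndufs6 (−0.78 ± 0.15) and Ndufs4 (−0.48 ± 0.13, adjusted p = 0.0405), both accessory subunits of that module, completed the called genes, with both untreated Lgr5-positive arrays below both Lgr5-negative arrays for Ndufs4.

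Of the 4 measured subunits listed for the ubiquinone-reducing module, Ndufa5 (−0.60 ± 0.13) and Ndufs3 (−0.58 ± 0.16) were lower. Ndufs7, a core iron-sulfur subunit, was at 10.92 and 11.30 in untreated Lgr5-positive arrays against 11.19 and 11.24 in untreated Lgr5-negative arrays, so these groups overlapped (−0.10 ± 0.17, adjusted p = 0.722). The other 21 subunits were listed together as membrane arm and accessory subunits, and 7 of them were lower. Not all of the 21, Ndufa9 among them, lie in the membrane arm, so this is no count of that arm alone. Ndufc1, a small membrane subunit, stood at 10.32 and 10.36 against 11.43 and 11.26 (−1.0 ± 0.16, adjusted p = 0.00744), a 2.0-fold lower level with little spread in either group. Ndufb9 (−0.93 ± 0.19), Ndufa9 (−0.92 ± 0.16), Ndufb5 (−0.87 ± 0.16), Ndufb2 (−0.77 ± 0.13), Ndufb3 (−0.76 ± 0.17) and Ndufb10 (−0.54 ± 0.13) were the others. Ndufa11, a membrane subunit, was the exception in complex I with a value above 0 (0.15 ± 0.18, adjusted p = 0.611), and its groups overlapped. Of the 32 subunits, 7 were lower without untreated Lgr5-positive array 1 and 22 without array 2, and 3 and 2 without array 1 and array 2 of the untreated Lgr5-negative group.

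The assembly factors, which build complex I without remaining in it, included the largest decreases of all members. Ndufaf2, a late assembly factor (chr13:108052589-108158652), stood at 8.10 and 8.15 in untreated Lgr5-positive arrays, against 9.46 and 9.33 in untreated Lgr5-negative arrays (−1.27 ± 0.19, adjusted p = 0.00526). Its untreated Lgr5-positive arrays were close together. Ndufaf4 stood at 6.26 and 6.78 against 7.63 and 7.90 (−1.24 ± 0.21, adjusted p = 0.00867), and Ndufaf5, which modifies Ndufs7 during assembly, was also lower (−0.80 ± 0.20, adjusted p = 0.0351). Ndufaf1 (−0.97 ± 0.31), Ndufaf6 (−0.67 ± 0.20) and Ndufaf8 (−0.52 ± 0.23) did not pass, and Ndufaf3 was at 0.06 ± 0.30 with overlapping groups. Ndufv3 and Ndufaf2 were the 2 of the 33 called members that passed under each of the 18 alternatives tried, single arrays left out included. Without untreated Lgr5-negative array 2, Ndufaf2 was the 1 assembly factor still lower.

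Complex II also belongs to the tricarboxylic acid cycle, and 0 of its 4 subunits were called by limma, although all 4 had an unadjusted p under 0.05 and a median of −0.65. Sdhb, the iron-sulfur subunit, stood at 9.54 and 10.07 in untreated Lgr5-positive arrays, against 10.50 and 10.49 in untreated Lgr5-negative arrays (−0.69 ± 0.20, adjusted p = 0.0515). Sdhd, a membrane anchor, was at 6.10 and 6.13 against 7.05 and 7.52 (−1.17 ± 0.35, adjusted p = 0.0585), and the flavoprotein Sdha was at −0.44 ± 0.14 and the other anchor Sdhc at −0.62 ± 0.18. In all 4 the untreated groups did not overlap.

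Complex III had all 8 measured subunits lower, with a median of −0.89 (1.85-fold). Uqcrc1, a core protein (chr9:108936648-108949641), stood at 9.82 and 10.13 in untreated Lgr5-positive arrays, against 10.70 and 10.82 in untreated Lgr5-negative arrays (−0.79 ± 0.13, adjusted p = 0.00891). Uqcrfs1, the Rieske iron-sulfur protein, was at 8.76 and 9.20 against 9.90 and 9.95 (−0.95 ± 0.18, adjusted p = 0.0140). The groups of both genes were clearly separate, and array 1 was the lower of the untreated Lgr5-positive pair in each. Cyc1, which carries the haem that passes electrons to cytochrome c, was lower by a log2 fold change of −0.75 ± 0.16, and the core protein Uqcrc2 by −0.57 ± 0.12. The small subunits Uqcr10 (−0.96 ± 0.22), Uqcrb (−0.90 ± 0.23), Uqcr11 (−0.89 ± 0.22) and Uqcrq (−0.89 ± 0.24) made up the rest. The count was 2 of 8 without untreated Lgr5-positive array 1, 5 without either vismodegib Lgr5-positive array or after cyclic loess, and 1 and 0 without array 1 and array 2 of the untreated Lgr5-negative group, while the median stayed between −1.11 and −0.62 over all alternatives.

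**Figure D2:**
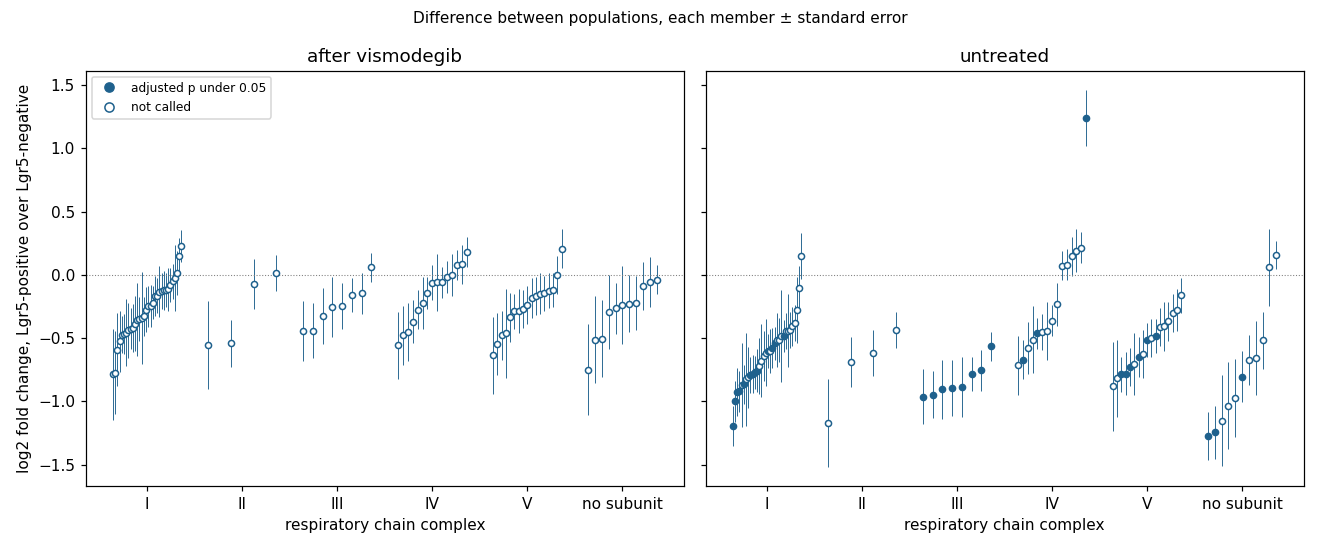
Log2 fold change of Lgr5-positive over Lgr5-negative cells for each tested member, with its standard error, after vismodegib (left) and untreated (right), by complex and with members that are no subunit in the last column. Filled points passed an adjusted p of 0.05: 33 untreated and 0 after vismodegib.

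Complex IV, cytochrome c oxidase, is described by isoform. The 9 common subunits all lay below 0, with a median of −0.46, and Cox6a1 and Cox5b were called lower. Cox6a1 stood at 11.37 and 11.74 in untreated Lgr5-positive arrays, against 12.25 and 12.21 in untreated Lgr5-negative arrays (−0.67 ± 0.15, adjusted p = 0.0259). Cox5b was at 11.74 and 12.01 against 12.35 and 12.32 (−0.46 ± 0.13, adjusted p = 0.0434). Neither gene passed without untreated Lgr5-positive array 1 or without either untreated Lgr5-negative array, where complex IV had 0 lower members. Cox4i1, the common isoform of the largest nuclear subunit, stood at 11.12 and 11.62 against 11.62 and 11.58, so its groups met (−0.23 ± 0.17, adjusted p = 0.40). Cox5b, read by a probe set of a type that can bind related transcripts, was at −0.18 as the mean of its probe sets and then did not pass.

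The 6 tested isoforms of restricted tissues had values above 0, but only Cox6b2, a testis isoform in mammals (chr7:4751792-4753094), was called higher. Cox6b2 stood at 6.65 and 6.65 in vismodegib Lgr5-positive arrays, 6.76 and 6.65 in vismodegib Lgr5-negative arrays, 7.62 and 8.29 in untreated Lgr5-positive arrays, and 6.54 and 6.90 in untreated Lgr5-negative arrays. The untreated Lgr5-positive arrays thus stood alone above the other 6. The log2 fold change of untreated Lgr5-positive over untreated Lgr5-negative cells was 1.24 ± 0.22 (2.36-fold, adjusted p = 0.0107), and it did not pass without untreated Lgr5-negative array 1 (1.06). Cox6b1, the common isoform of the same subunit, was at −0.51 ± 0.27 and did not pass (adjusted p = 0.236). Cox4i2, Cox6a2, Cox7a1, Cox8b and Cox8c, which are known from lung, heart, muscle, brown fat and testis, lay between 0.07 and 0.21 and did not pass. Their signals were between 5.68 and 6.95 in all arrays, around the array medians of 6.13 to 6.20. At that level their small values do not show a difference between isoforms.

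Ndufa4, an accessory subunit now assigned to complex IV, and its relative Ndufa4l2, which hypoxia induces through HIF-1, varied more between arrays. Ndufa4 stood at 9.21 and 10.21 in untreated Lgr5-positive arrays against 10.67 and 10.82 in untreated Lgr5-negative arrays (−1.03 ± 0.34, adjusted p = 0.0799). Cox7a2l, a factor that joins complexes III and IV into supercomplexes, was a member with a value above 0. It stood at 11.82 and 11.97 against 11.76 and 11.72 (0.15 ± 0.11, adjusted p = 0.384), with groups that did not overlap and a difference that did not pass.

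The ATP synthase had 6 of 17 subunits lower and 0 higher, with a median of −0.51 and all 17 below 0. Atp5g1, which encodes the proton-carrying ring subunit, stood at 9.47 and 9.81 in untreated Lgr5-positive arrays, against 10.36 and 10.49 in untreated Lgr5-negative arrays (−0.79 ± 0.14, adjusted p = 0.0105). Atp5g3, another gene for the same mature ring protein, was lower too (−0.48 ± 0.13, adjusted p = 0.0478). Of the stalk and membrane subunits, Atp5pb (−0.78 ± 0.17), Atp5j (−0.73 ± 0.15) and Atp5j2 (−0.65 ± 0.16) were lower. Atp5j stood at 10.04 and 10.33 against 10.89 and 10.93, without overlap. In the catalytic head with its rotor, 1 of 5 was called, the rotor subunit Atp5c1 (−0.51 ± 0.14, adjusted p = 0.0409), and the catalytic subunit Atp5b was at 10.66 and 11.08 in untreated Lgr5-positive arrays against 11.33 and 11.40 in untreated Lgr5-negative arrays and did not pass. Without untreated Lgr5-positive array 1, 1 of the 17 was lower, 13 were without array 2 of that group, and 1 and 0 were without array 1 and array 2 of the untreated Lgr5-negative group.

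Another probe set gave a check on some of these genes. Of the 32 lower members, 14 had 18 further probe sets, of which 14 had the same sign, with a median of −0.47. Those of opposite sign belonged to Atp5g1 (0.51), Atp5c1 (0.38), Uqcrq (0.32) and Cox5b (0.13). With the mean of each gene's probe sets, 32 members were lower and 1 higher, and 26 of the 33 calls were kept. Probe sets of types that can bind several transcripts, as for Cox5b, read 44 tested members, of which 18 were lower (median −0.63). The 43 others had 14 lower and 1 higher (median −0.60).

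The promoters of these genes were read from RefSeq (GRCm38.p6), where 70 of the 88 members have an entry from 250 bases before to 50 after the gene's start. They were searched on both strands for 3 motifs of factors known to act on respiratory genes: GCGCATGC, the core of the Nrf1 motif, CCGGAAG, bound by ETS factors such as Gabpa, and AAGATGGC, the Yy1 motif. The Nrf1 core was in 12 of 70 members (17.1%), against 5.07% of tested genes and 3.05% of all genes in the table. The ETS motif was in 24.3% against 16.8% and 9.93%, and the Yy1 motif in 15.7% against 4.57% and 3.19%. At least 1 of the 3 was in 33 members (47.1%), against 24.0% of tested genes. Among the 26 lower members with an entry it was in 13 (50%). Singly, the Nrf1 core was in 19.2% of these 26, the ETS motif in 15.4% and the Yy1 motif in 26.9%, so the ETS share was below and the Yy1 share above that of all members; these differences were not tested. A match is a description of letters and no evidence of binding. The 250 bases before the start are printed for Ndufaf4, Cox6a1 and Atp5j, lower members that together hold the 3 motifs, and for Cox6b2, the member that was higher and has none of them. Capitals mark the motifs, 5′ to 3′ on the strand of the gene; GCGCATGCGC is the Nrf1 core read on both strands with overlap, and CTTCCGG is the ETS motif on the opposite strand.
Ndufaf4, chr4:24897833-24898082, plus strand: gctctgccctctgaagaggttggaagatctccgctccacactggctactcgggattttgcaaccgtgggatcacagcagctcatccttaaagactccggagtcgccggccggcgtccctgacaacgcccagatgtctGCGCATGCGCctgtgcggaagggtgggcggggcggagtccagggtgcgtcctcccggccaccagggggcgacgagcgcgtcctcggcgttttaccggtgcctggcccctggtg
Cox6a1, chr5:115348959-115349208, minus strand: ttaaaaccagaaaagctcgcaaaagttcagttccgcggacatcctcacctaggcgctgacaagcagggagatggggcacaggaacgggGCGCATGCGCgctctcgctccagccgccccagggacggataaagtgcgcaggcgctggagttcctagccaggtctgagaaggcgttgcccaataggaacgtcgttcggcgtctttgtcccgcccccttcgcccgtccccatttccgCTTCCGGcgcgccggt
Atp5j, chr16:84834977-84835226, minus strand: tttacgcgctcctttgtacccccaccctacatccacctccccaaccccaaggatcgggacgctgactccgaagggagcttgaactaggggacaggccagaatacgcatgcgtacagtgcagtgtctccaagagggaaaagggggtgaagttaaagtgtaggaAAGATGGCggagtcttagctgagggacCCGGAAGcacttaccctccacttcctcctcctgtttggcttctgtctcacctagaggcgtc
Cox6b2, chr7:4753095-4753344, minus strand: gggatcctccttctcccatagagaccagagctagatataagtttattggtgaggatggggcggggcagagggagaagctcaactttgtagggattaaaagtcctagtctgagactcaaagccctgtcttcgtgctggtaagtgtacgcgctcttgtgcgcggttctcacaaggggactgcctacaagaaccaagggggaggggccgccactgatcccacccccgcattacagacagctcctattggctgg
Counted from the start base as 0, the Nrf1 pair lies at −113 to −104 in Ndufaf4 and −162 to −153 in Cox6a1. The Yy1 motif lies at −88 to −81 and the ETS motif at −61 to −55 in Atp5j.

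Other nuclear genes of mitochondria were counted in the same untreated comparison. A list of the tricarboxylic acid cycle, which feeds electrons to the chain, and of pyruvate entry into it had 8 of 17 genes lower and 0 higher, with a median of −0.48. Of these, 12 are enzymes of the cycle, with 6 lower (median −0.46), and 5 belong to pyruvate dehydrogenase or the pyruvate carrier, with 2 lower (median −0.48). Among them were Dlat, a subunit of pyruvate dehydrogenase (−1.33 ± 0.24), and Ogdh, of the oxoglutarate dehydrogenase (−0.86 ± 0.18). Fumarase Fh1 (−0.70 ± 0.14) and the succinyl-CoA ligase subunit Sucla2 (−0.67 ± 0.13) were lower as well. The mitochondrial ribosome, which makes the subunits encoded in mitochondrial DNA, had 23 of 71 proteins lower and 0 higher (median −0.57), led by Mrpl36 (−1.28 ± 0.24), Mrps15 (−1.19 ± 0.24), Mrpl19 (−1.05 ± 0.19) and Mrpl42 (−1.01 ± 0.18).

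Protein import had 9 of 21 genes lower and 0 higher (median −0.53), including the outer membrane receptors Tomm70a (−1.34 ± 0.18, adjusted p = 0.00384) and Tomm22 (−0.80 ± 0.17). Assembly factors and electron carriers outside the symbol rule had 9 of 40 lower and 0 higher (median −0.38), with Coq7, an enzyme of ubiquinone synthesis, at −0.92 ± 0.17. Each of these 4 lists had a larger share of lower genes than the 10.9% of all genes, but each count was smaller without untreated Lgr5-positive array 1 and without either untreated Lgr5-negative array. Without untreated Lgr5-positive array 1, the list of the cycle and pyruvate entry had 5 lower genes, the ribosome 9, import 1 and the other assembly factors and carriers 2. Without untreated Lgr5-negative array 1 these counts were 1, 2, 2 and 1, and without array 2 of that group 1, 0, 1 and 0.

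**Figure D3:**
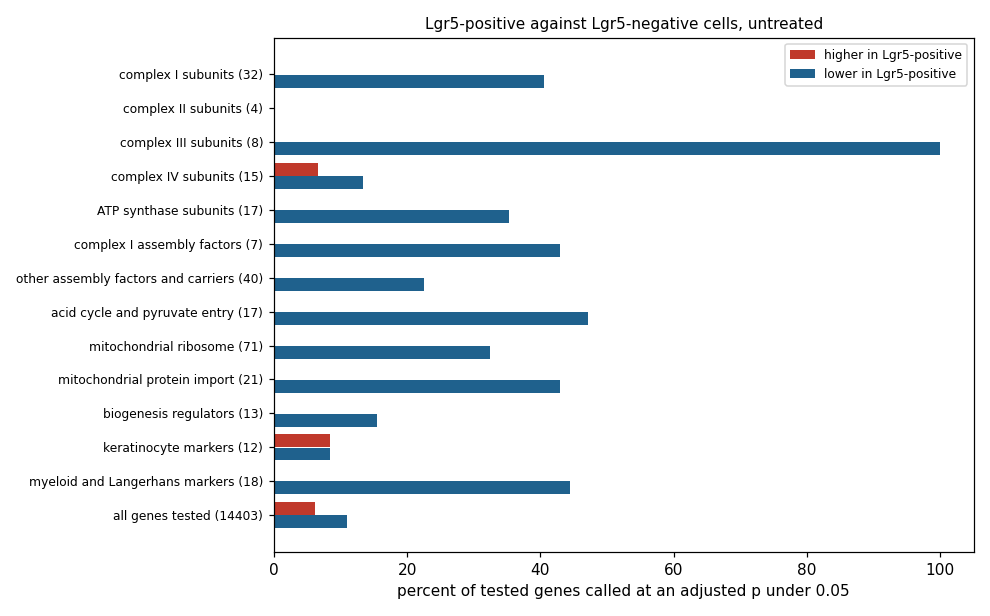
Percent of the tested genes of each list that were higher (red) or lower (blue) in untreated Lgr5-positive than in untreated Lgr5-negative cells at an adjusted p under 0.05, with the number tested in brackets. Complex III reaches 100%, complex I 40.6% and complex IV 13.3% lower, beside 10.9% of all genes.

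Markers of myeloid and Langerhans cells moved with this comparison. Of 18 tested, 8 were lower and 0 higher in untreated Lgr5-positive cells, with a median of −1.03. The summed log2 level of the 19 markers was 117 and 109 in the untreated Lgr5-positive arrays and 136 and 143 in the untreated Lgr5-negative arrays. Lysozyme Lyz2 was at 4.85 and 3.63 in untreated Lgr5-positive arrays against 6.78 and 7.48 in untreated Lgr5-negative arrays, and no marker was under 4.85 in all 8 arrays. Untreated Lgr5-positive array 1, the lower in subunits, had the higher marker sum of its pair. Of 9 T cell markers, 2 were lower and 0 higher.

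Dermal fibroblast markers stood the other way. Of 4 tested, all lay above 0 (median 0.63), and Col1a1 was called higher, at 6.96 and 7.19 in untreated Lgr5-positive arrays against 6.29 and 6.11 in untreated Lgr5-negative arrays (0.88 ± 0.17, adjusted p = 0.0147). The summed level of the 8 markers on the array was 49.0 and 49.2 in the untreated Lgr5-positive arrays and 46.5 and 46.2 in the untreated Lgr5-negative arrays, and the defining markers Pdgfra, Lum and Dpt were under 4.85 in all 8 arrays. The call of Col1a1 was lost without untreated Lgr5-positive array 2 or either untreated Lgr5-negative array. The part of the myeloid, T and fibroblast cells in the difference of the subunits was not tested.

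After vismodegib, the Lgr5-positive cells were again mostly below the Lgr5-negative cells in these genes, and no member passed. The median difference was smaller than in untreated cells, but no member was called when that change was tested directly in limma (below). In limma, 0 of 87 were called in either direction (6 at an unadjusted p under 0.05), against 0.34% of all genes higher and 0.132% lower. The median was −0.24, 77 of 87 lay below 0, and for 45 (51.7%) both vismodegib Lgr5-positive arrays were under both vismodegib Lgr5-negative arrays, against 22.5% of all genes. Ndufv3 stood at 10.13 and 10.25 in vismodegib Lgr5-positive arrays, against 10.69 and 10.62 in vismodegib Lgr5-negative arrays, without overlap (−0.47 ± 0.16, adjusted p = 0.308). Ndufaf2 was at 8.92 and 8.79 against 9.23 and 8.65, with overlap (−0.09 ± 0.19). Among the widest gaps were Ndufa3 (−0.78 ± 0.36), a small membrane subunit, and the core subunit Ndufs8 (−0.77 ± 0.33), both with an adjusted p above 0.05.

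By complex, the medians after vismodegib were −0.26 for complex I, −0.31 for II, −0.25 for III, −0.06 for IV and −0.24 for V. The median of all members was −0.09 without vismodegib Lgr5-negative array 1 and −0.38 without array 2, since array 1 of that group was the higher for 67 of the 76 subunits. The myeloid markers stood the other way here, with summed levels of 166 and 160 in vismodegib Lgr5-positive arrays and 155 and 154 in vismodegib Lgr5-negative arrays, and 3 of 18 higher (median 0.43). The 4 tested fibroblast markers lay above 0 (median 0.28) and none passed, with sums of 46.2 and 46.6 in vismodegib Lgr5-positive arrays and 44.5 and 46.0 in vismodegib Lgr5-negative arrays.

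**Figure D4:**
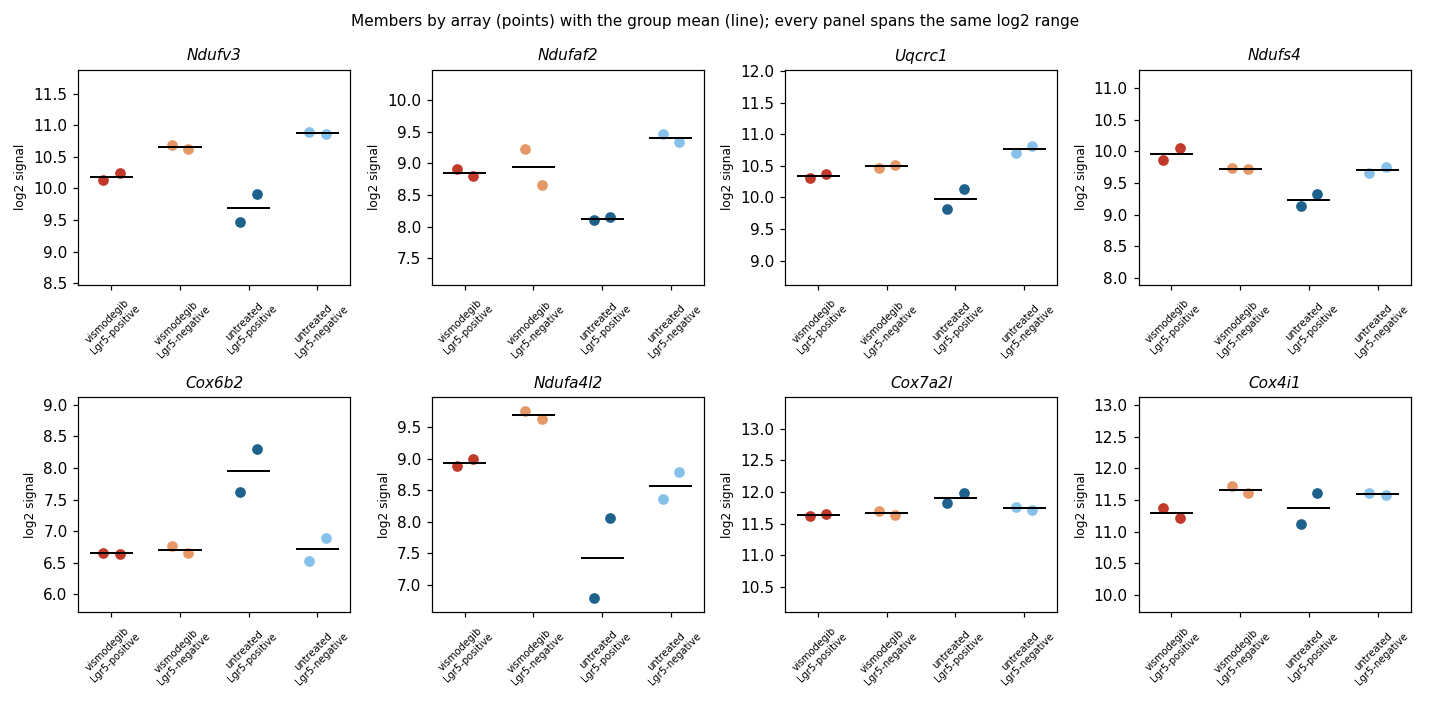
Log2 signal of 8 members in each array (points) with the group mean (line); every panel spans the same log2 range. Ndufv3, Ndufaf2 and Uqcrc1 are lowest in untreated Lgr5-positive cells, Cox6b2 is highest there, and Cox7a2l varies little.

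Vismodegib against untreated in Lgr5-positive cells gave few called members. In limma, 5 of 87 members were higher, against 6.37% of all genes, and 1 was lower, against 4.51%. Neither share was above that of all genes, so the counts set the members apart in neither direction. The median was 0.14, beside −0.01 over all genes, and in 32 members (36.8%) both vismodegib arrays were above both untreated ones, against 27.9% of all genes. The sign of that median depended on the unequal untreated arrays: it was −0.09 without untreated Lgr5-positive array 1 and 0.35 without array 2. After cyclic loess it was 0.05.

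Ndufs4, whose loss in mice causes a Leigh-like disease, stood at 9.87 and 10.05 in vismodegib Lgr5-positive arrays, against 9.13 and 9.33 in untreated Lgr5-positive arrays. The groups were apart by more than their spread (0.73 ± 0.13, 1.66-fold, adjusted p = 0.0116). Ndufs1 was at 8.62 and 8.74 against 8.0 and 8.22 (0.57 ± 0.14, adjusted p = 0.0427). The assembly factor Ndufaf4 was at 7.47 and 7.53 against 6.26 and 6.78 (0.98 ± 0.21, adjusted p = 0.0260). All 3 genes had groups without overlap. Ndufaf2 was at 8.92 and 8.79 against 8.10 and 8.15 (0.73 ± 0.19, adjusted p = 0.0479). These 4 genes were also among the lower ones of untreated Lgr5-positive cells; the comparisons share the untreated Lgr5-positive arrays.

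Ndufa4l2 (chr10:127509274-127517154) had the largest increase. It stood at 8.88 and 8.99 in vismodegib Lgr5-positive arrays, 9.74 and 9.63 in vismodegib Lgr5-negative arrays, 6.79 and 8.05 in untreated Lgr5-positive arrays, and 8.36 and 8.78 in untreated Lgr5-negative arrays. In each population both vismodegib arrays lay above both untreated arrays, and the untreated Lgr5-positive pair differed widely. The log2 fold change of vismodegib over untreated was 1.52 ± 0.36 in Lgr5-positive cells (2.86-fold, adjusted p = 0.0370) and 1.11 ± 0.36 in Lgr5-negative cells (adjusted p = 0.153). In Lgr5-negative cells it passed without either untreated Lgr5-positive array, which enter that fit only through the shared estimate of spread. In Lgr5-positive cells it did not pass without either vismodegib Lgr5-positive array or either untreated Lgr5-negative array.

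Cox6b2 was the member that was lower, at 6.65 and 6.65 in vismodegib Lgr5-positive arrays against 7.62 and 8.29 in untreated Lgr5-positive arrays (−1.31 ± 0.22, 2.48-fold, adjusted p = 0.0110). Ndufa11 was at 9.96 and 10.19 against 10.54 and 10.80 (−0.60 ± 0.18, adjusted p = 0.0790) and passed after cyclic loess (−0.70), where 3 members were higher and 2 lower. No member kept its call in every alternative, and Ndufs1 and Ndufaf2 each lost it in 10 of 17. Without vismodegib Lgr5-positive array 1 the call of Ndufs4 remained alone, and without array 2 of that group 0 members passed. Without either untreated Lgr5-negative array, 3 passed: Ndufs4, Ndufaf4 and Cox6b2.

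By complex, median changes in Lgr5-positive cells were 0.09 for complex I, 0.24 for II, 0.32 for III, 0.06 for IV and 0.18 for V. All 8 subunits of complex III lay above 0, from 0.14 to 0.44, and 0 passed in limma (4 at an unadjusted p under 0.05). Uqcrc2 had the lowest p of these, at 11.60 and 11.69 in vismodegib Lgr5-positive arrays against 11.31 and 11.20 in untreated Lgr5-positive arrays (0.39 ± 0.12, adjusted p = 0.0759). Myeloid markers rose in this comparison, 15 of 18 with 0 lower (median 2.6), with summed levels of 166 and 160 in vismodegib arrays and 117 and 109 in untreated arrays. Lyz2 was higher by a log2 fold change of 6.73 ± 0.38. Of the 4 fibroblast markers 1, Fbln1, was lower (−1.40 ± 0.33, adjusted p = 0.0343; lost without vismodegib Lgr5-positive array 1 or any single untreated array), with sums of 46.2 and 46.6 in vismodegib arrays and 49.0 and 49.2 in untreated arrays. The part of these cells in the changes of the members was not tested.

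In Lgr5-negative cells most members had values below 0 after vismodegib, and none passed. In limma, 0 of 87 were called in either direction (12 at an unadjusted p under 0.05), against 1.26% of all genes higher and 2.06% lower. The median was −0.19, 75 of 87 lay below 0, and in 44 (50.6%) both vismodegib arrays were under both untreated arrays, against 24.9% of all genes. Ndufv2, a flavoprotein subunit of complex I, stood at 10.22 and 9.93 in vismodegib Lgr5-negative arrays, against 10.63 and 10.76 in untreated Lgr5-negative arrays (−0.62 ± 0.18, adjusted p = 0.112). Ndufa5 was at 11.21 and 11.06 against 11.64 and 11.67 (−0.52 ± 0.13, adjusted p = 0.0864), the lowest adjusted p among the members in this comparison. Neither pair of groups overlapped. The shift was carried more by vismodegib Lgr5-negative array 2: the median was −0.32 without array 1 and −0.06 without array 2. Myeloid markers had 4 of 18 higher and 0 lower, with sums of 155 and 154 in vismodegib arrays and 136 and 143 in untreated arrays.

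The vismodegib effect in Lgr5-positive minus that in Lgr5-negative cells was tested directly. In limma, 0 of 87 members were called (18 at an unadjusted p under 0.05), against 0.993% of all genes with a higher and 0.41% with a lower difference. The share of higher differences among all calls was 70.8%, against 60.3% with each array centred on its median. The members' median difference was 0.36, with 75 of 87 above 0, and all 8 subunits of complex III (median 0.62) and all 17 of complex V (0.33) above 0. After cyclic loess the members' median was 0.23. Ndufaf2 came closest to a call (1.19 ± 0.26, adjusted p = 0.0809), followed by Cox6b2 (−1.30 ± 0.32, adjusted p = 0.0969) and Ndufs4 (0.71 ± 0.18, adjusted p = 0.104). The myeloid markers moved in the same direction, with 6 of 18 called higher and 0 lower (median 1.49), among them Lyz2 (5.44 ± 0.53, adjusted p = 0.0112). The 4 fibroblast markers lay below 0 (median −0.29) and none passed. The part of these cells in the members' difference was not tested.

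With the mouse as a block, which uses the shared animal of the populations, Cox6b2 passed and was the 1 member to do so. It also passed without untreated Lgr5-positive array 1, while Ndufaf2 passed without vismodegib Lgr5-negative array 1. The median difference was 0.15 without untreated Lgr5-positive array 1 and 0.56 without array 2.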

How the data were processed

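The data are the log2 expression values of Affymetrix mouse arrays that the authors deposited, made by RMA (background correction, quantile normalisation and probe set summary) per the submitters' processing notes; no version is given in the sources used here. The 8 arrays had medians from 6.13 to 6.20, and their number limits the precision. Of 45141 probe sets, 28898 have a single gene symbol in the platform annotation, 551 several and 15588 none, and 104 are controls; those with 1 symbol gave 17097 genes, each read by its probe set with the highest mean. The test covered the 14403 genes whose signal passed 4.85 (the lower quartile of the table) in 2 or more arrays.

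A mean per group was fitted over all 8 arrays by lmFit and eBayes of limma (version 3.58.1, under R 4.3.3; 4 residual and 3.525 prior degrees of freedom, two-sided), with Benjamini-Hochberg adjustment over all genes tested and a threshold of 0.05, for 5 contrasts. Fold changes are on the log2 scale. The code was tested on simulated data. The alternatives were other filters, the mean of a gene's probe sets, cyclic loess, centring on the median, an intensity trend, only the groups compared, replicate blocks, and leaving out each array.

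The titles give mouse numbers, so both populations of a mouse come from 1 animal; the deviations of such arrays from their group means correlated over genes at 0.14 (untreated) and 0.21 (vismodegib). Across treatments the number only names a mouse.

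The members and all gene and marker lists were chosen with earlier results of these data known. Any member may be named; named in full are members past the threshold (the 12 with the largest change per direction where there are more), the extremes of each complex, tissue-restricted isoforms, and up to 4 called genes of each other list. The 8 members plotted by array were chosen after their values were seen. Some nuclear subunits and the subunits encoded in mitochondrial DNA were not analysed here.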

Additional observations from a re-analysis of the deposited data

How the results depend on the processing

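With 2 mice per group, single arrays moved the counts most. Leaving out each array in turn, the number of members called was 0 to 6 for vismodegib against untreated in Lgr5-positive cells (6 with all arrays), 0 to 1 in Lgr5-negative cells (0), 4 to 55 for Lgr5-positive against Lgr5-negative untreated cells (33) and 0 to 1 for the difference between the vismodegib effects (0). The median of members then ran from −0.83 to −0.37 in the untreated comparison of populations, from −0.38 to −0.093 after vismodegib, and from 0.15 to 0.56 for the difference between the effects. With the mouse as a replicate block, 1 member was called for that difference, Cox6b2 (−1.30), and the untreated comparison of populations had 36 calls; no other count of members moved by over 1.5 times. With the replicate number as a block across treatments, which pairs nothing in the design, it had 27. Other filters, scalings and fits on all arrays gave 25 to 40 calls there, and 21 of the 33 passed in each of them. No named gene turned its direction while called. Over all genes, the calls ranged from 543 to 1823 for vismodegib in Lgr5-positive cells (1566), 65 to 523 in Lgr5-negative cells (478), 582 to 2852 for the populations untreated (2466), 11 to 107 after vismodegib (68) and 2 to 300 for the difference (202). Where a call was lost with fewer arrays, fewer degrees of freedom were left; for the other alternatives the cause was not tested.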

Other observations

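Among 13 tested regulators of mitochondrial biogenesis, 2 were lower and 0 higher in untreated Lgr5-positive than in untreated Lgr5-negative cells (median −0.11). Over all genes tested, 10.9% were lower and 6.21% higher, so the count of 2 is near that share. Ppargc1b, a coactivator of mitochondrial genes, stood at 8.47 and 8.61 in vismodegib Lgr5-positive arrays, 8.92 and 9.28 in vismodegib Lgr5-negative arrays, 7.02 and 7.55 in untreated Lgr5-positive arrays, and 8.21 and 8.40 in untreated Lgr5-negative arrays. It was lower in untreated Lgr5-positive than in untreated Lgr5-negative cells (log2 fold change −1.02 ± 0.20, adjusted p = 0.0156, limma). In Lgr5-positive cells it was higher after vismodegib (1.26 ± 0.20, adjusted p = 0.00875), and in Lgr5-negative cells it was at 0.80 ± 0.20 (adjusted p = 0.0858). Esrra, a nuclear receptor that works with this coactivator, was lower in untreated Lgr5-positive cells (−0.69 ± 0.16, adjusted p = 0.0261), with 7.11 and 7.47 against 7.88 and 8.08 in untreated Lgr5-negative cells. Neither gene was called lower without untreated Lgr5-positive array 1 or without either untreated Lgr5-negative array. Pprc1, a related coactivator, was higher after vismodegib in Lgr5-positive cells (0.55 ± 0.14, adjusted p = 0.0420). Tfam, which maintains mitochondrial DNA, Gabpa and Nrf1 were at 0.28 ± 0.14, −0.11 ± 0.14 and −0.03 ± 0.13 between the untreated populations and did not pass.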
